A study of Gallus gallus with 12 samples.

Results

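Cathepsins, their inhibitor and the proton pump and membrane proteins of lysosomes were followed in HTC cells, a chicken macrophage cell line, through 7 genes: CTSD, CTSK, CTSC, CSTA, ATP6V0D2, LAPTM5 and LAMP5. They are 7 of the 2253 named genes of the array and were selected on their measured changes against unstimulated cells at 4 h, 48 h or over all times (CSTA on E. tenella), in an earlier look at the same arrays. Those changes are therefore given as a description, without a test. The NCBI Gene identifiers are 396090 for CTSD, 395818 for CTSK, 419014 for CTSC, 418268 for CSTA, 420210 for ATP6V0D2, 419552 for LAPTM5 and 416732 for LAMP5.

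Lysosomes are acidic organelles in which macrophages break down what they engulf. Their proteases, the cathepsins, work best at low pH, which the vacuolar proton pump (V-ATPase) sets up, and cystatins inhibit those cathepsins that use an active-site cysteine. Membrane proteins of the LAMP and LAPTM families line the organelle or sort proteins to it.

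HTC cells were compared without stimulation and after 4, 18 and 48 h of contact with 1 of 3 Eimeria species, intracellular protozoan parasites of the chicken gut: E. tenella, E. maxima or E. acervulina. There was 1 polyA RNA per species and time, and 12 cDNA arrays of 2 colours, 4 per species in a closed loop (unstimulated, 4 h, 18 h, 48 h and back, in either direction), measured each RNA with both dyes. No array set 18 h directly against unstimulated RNA. The labels name neither the form or dose of the parasites nor control cells cultured for the same times, so the effects of stimulation and of culture time cannot be told apart. The unstimulated RNA bears one name in the 3 loops, and the labels leave unsaid if 1 RNA or 3 were used; 3 were assumed.

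Each value is a log2 change from the unstimulated RNA of its loop, by a least squares fit to the 4 arrays, and a mean ± SD is over the 3 species (n = 3), whose cultures serve as replicates of a time. The labels do not say that the cultures were started separately, so the spread behind the p-values is only that between these samples and may be technical. The deposited ratios were read as Alexa555 over Alexa647 because all titles name the Alexa555 RNA first. The direction was set with earlier results of these data known, and the opposite one had been planned in that earlier work. This reading also gives several chemokine genes the sign remembered for this study, which could not be checked and cannot count as support. The direction is not settled, and the opposite reading turns every sign below. A 2-colour ratio holds no absolute level, so the labelled cell type could not be checked by the level of its markers. In bulk RNA, fewer cells of a type and less RNA per cell cannot be told apart.

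The array rows with a value numbered 12199 to 13938 of 14718, and tests covered the 3700 features complete on the 12 arrays, of which 2238 had a name. All 7 genes were among them. They were represented by 10 cDNA clones, 3 for CTSC, 2 for LAPTM5 and 1 for each of the others, each spotted 3 times. Of 360 possible spot values 328 were present, and 2 array values rested on a single spot, 1 each for CTSD and ATP6V0D2. A cDNA clone can also bind RNA of related genes, and this was not tested. Each feature without a name was a single spot and not an average, so a clone could count more than once among the 3700. Shares, ranks and loop sums over all features thus set averaged genes beside single spots.

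At 4 h the 3 cathepsins, the inhibitor and the pump subunit were higher than in unstimulated cells in every species, by 0.92 to 1.61 on average, and LAMP5 was lower in every species. At 48 h CTSD, CTSK and CTSC averaged 0.27, 0.43 and 0.04, whereas ATP6V0D2 and CSTA averaged 1.32 and 1.13 and LAPTM5 -0.85. Of all features, 24.2% were higher and 30.9% lower in the 3 species at 4 h, with 24.8% and 24.9% at 18 h, and with 19.2% and 27.3% at 48 h. In the fit CTSD and ATP6V0D2 were positive in all 9 species-time samples, as were 7.16% of all features, and no gene of the 7 was negative in all 9, as were 10.4% of all features. These counts belong to the values that chose the genes and are given only to set the scale. With E. maxima the sign of ATP6V0D2 depended on the route around the loop, as given below.

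**Figure D1:**
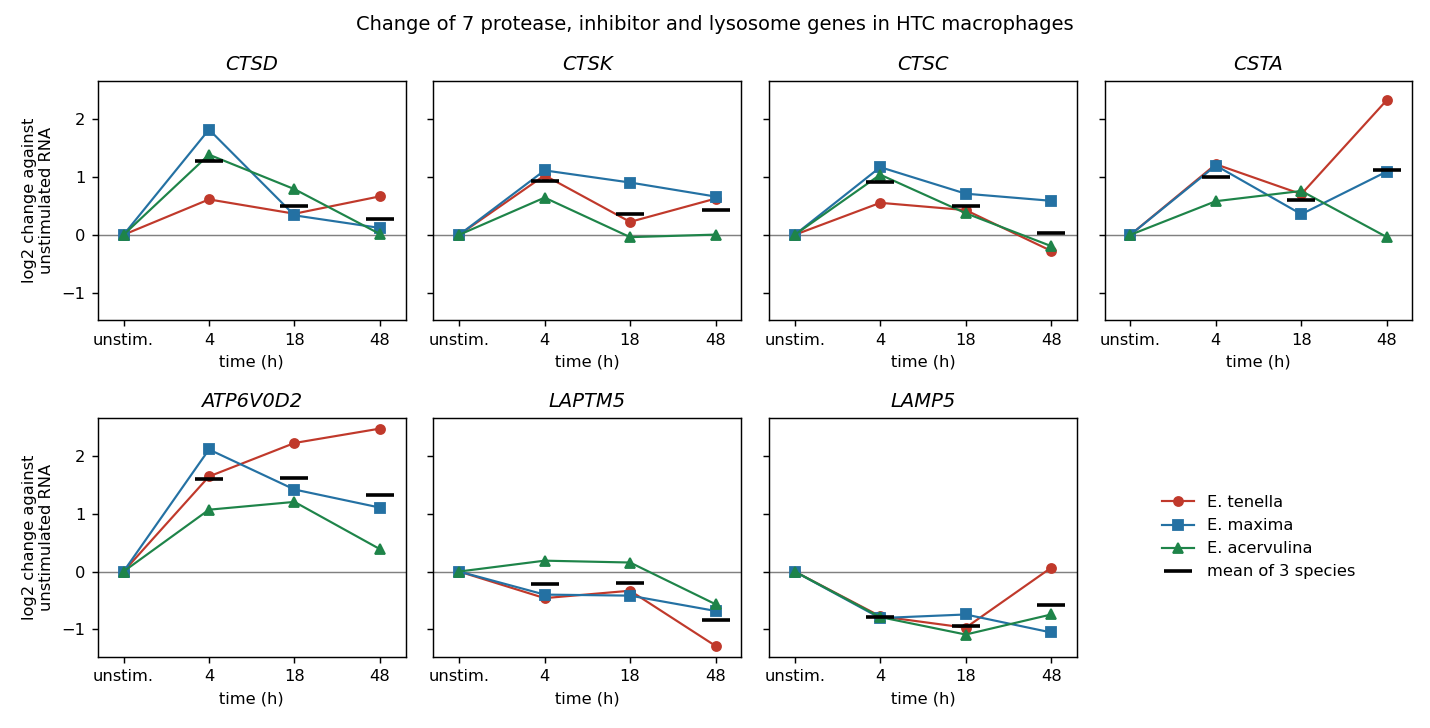
Log2 change against unstimulated RNA (vertical axis) at 4, 18 and 48 h (evenly spaced) for each gene, with 1 point per species and a bar at the mean of the 3 species. The 4 h means of CTSD, CTSK and CTSC are 1.27, 0.93 and 0.92, above their 48 h means, while the fitted change of ATP6V0D2 stays above 0 in every sample and LAPTM5 is lowest at 48 h.

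CTSD encodes cathepsin D, an aspartic protease that is among the main proteases of the lysosome. At 4 h its change was 0.61 with E. tenella, 1.82 with E. maxima and 1.39 with E. acervulina. At 18 h the values were 0.37, 0.34 and 0.79 in the same order, and at 48 h 0.67, 0.12 and 0.01. E. maxima and E. acervulina were thus highest at 4 h and near the unstimulated level at 48 h, whereas E. tenella lay between 0.37 and 0.67 at all 3 times. The means were 1.27 ± 0.61 at 4 h (2.42-fold), 0.50 ± 0.25 at 18 h and 0.27 ± 0.35 at 48 h, with the 4 h and 18 h values overlapping between species. The array that compared 4 h directly with unstimulated RNA gave 0.67, 1.85 and 1.41, against 0.45, 1.74 and 1.32 by way of the other 3 arrays. The 4 ratios around a loop, which should add to 0, added to -0.21, 0.11 and -0.08 for CTSD, against a median size of 0.38, 0.48 and 0.38 over all features.

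CTSK encodes cathepsin K, a cysteine protease known for digesting collagen in mammalian osteoclasts. Its change was 1.03, 1.12 and 0.64 at 4 h with E. tenella, E. maxima and E. acervulina. It was 0.22, 0.91 and -0.04 at 18 h, and 0.63, 0.66 and 0.00 at 48 h. In the fit all 3 species were highest at 4 h, and E. acervulina was back at the unstimulated level by 18 h. The means were 0.93 ± 0.25 (1.91-fold), 0.36 ± 0.49 and 0.43 ± 0.37. The CTSK loops closed less well, with sums of -0.72, 0.94 and 0.04. With E. tenella the 4 h change was 1.21 by the direct array and 0.49 by the other 3 arrays. Its 18 h change was -0.13 by 1 route around the loop and 0.58 by the other, so the sign at 18 h depended on the route. With E. maxima the array of 18 h over 4 h gave 0.025 and that of 48 h over 18 h gave -0.008. The fall after 4 h with E. maxima thus came from the fit, which spreads the sum of 0.94 over the 4 arrays.

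CTSC encodes cathepsin C, a dipeptidyl peptidase that in mammals activates serine proteases of granules. It was 0.55, 1.17 and 1.04 higher at 4 h with E. tenella, with E. maxima and with E. acervulina, and 0.43, 0.71 and 0.37 at 18 h. At 48 h it was -0.28 with E. tenella, 0.59 with E. maxima and -0.20 with E. acervulina. In each species the value was lower at each later time, and only E. maxima stayed above the unstimulated RNA at 48 h. The means were 0.92 ± 0.33 (1.90-fold), 0.51 ± 0.18 and 0.04 ± 0.48. The 3 clones gave alike patterns, for instance 0.35, 0.70 and 0.63 at 4 h with E. tenella and 0.95, 1.40 and 1.2 with E. maxima.

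CSTA encodes cystatin A, in mammals a cytosolic inhibitor of cysteine cathepsins. At 4 h it was 1.22, 1.2 and 0.58 higher with E. tenella, with E. maxima and with E. acervulina, and at 18 h 0.70, 0.36 and 0.76. At 48 h the species differed most, with 2.33, 1.10 and -0.04. Thus E. tenella and E. maxima had a second high value at 48 h that E. acervulina lacked, and the 48 h mean of 1.13 ± 1.19 had an SD as large as itself. The means at 4 and 18 h were 1.0 ± 0.36 (2.0-fold) and 0.61 ± 0.22. The E. tenella value was seen on both arrays that held that RNA, at 2.34 for 48 h over unstimulated and -1.62 for 18 h over 48 h. The 36 CSTA spot values were complete, and its loops added to 0.05, 0.02 and -0.28.

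ATP6V0D2 encodes the d2 subunit of the membrane sector of the V-ATPase, known from mouse osteoclasts and macrophages. Its change was 1.65, 2.11 and 1.07 at 4 h with E. tenella, with E. maxima and with E. acervulina, 2.22, 1.42 and 1.21 at 18 h, and 2.47, 1.11 and 0.39 at 48 h. All 9 fitted values were positive and 8 were past 2-fold. With E. tenella the value was highest at 48 h, with E. maxima at 4 h and with E. acervulina at 18 h. The means were 1.61 ± 0.52 (3.05-fold), 1.62 ± 0.54 (3.07-fold) and 1.32 ± 1.06 (2.50-fold). Averaged over the 3 times it was 1.52, which ranked 3 of 3700 features from the highest. The gene was chosen on changes of this kind, so the rank only describes.

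The size of the ATP6V0D2 change depended on 2 arrays, and with E. maxima its sign depended on the route around the loop. In E. maxima the 4 ratios added to 5.21, a sum that ranked 16 of 3700 by size. The array of 4 h over unstimulated RNA gave 3.42, with 3 spots from 3.38 to 3.48, and 18 h over 4 h and 48 h over 18 h gave 0.61 and 0.99. The array of unstimulated over 48 h RNA had 1 of 3 spots, at 0.20. By that array alone the 48 h change was -0.20, and by the other 3 arrays it was 5.02. The 2 routes also differed in sign at 4 h, with 3.42 and -1.80, and at 18 h, with 4.03 and -1.19. Without the array of unstimulated over 48 h RNA the E. maxima changes were 3.42, 4.03 and 5.02, so that 48 h and not 4 h was highest. The mean over species and times was then 2.39. In E. acervulina the 3 spots of the 48 h over unstimulated array lay at -1.61, 1.28 and 1.40, a range of 3.01. A range above 2 occurred in 1.05% of 26098 sets of 3 spots of a clone on an array. Without the low spot the E. acervulina loop added to 0.85, against -0.13 with all 3 spots, so it closed less well. The E. acervulina changes were then 1.32, 1.70 and 1.12, and the mean over species and times was 1.68. With both left out it was 2.55. The E. tenella loop added to 0.76, and in E. tenella and E. acervulina both routes around the loop gave a positive change at every time.

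**Figure D2:**
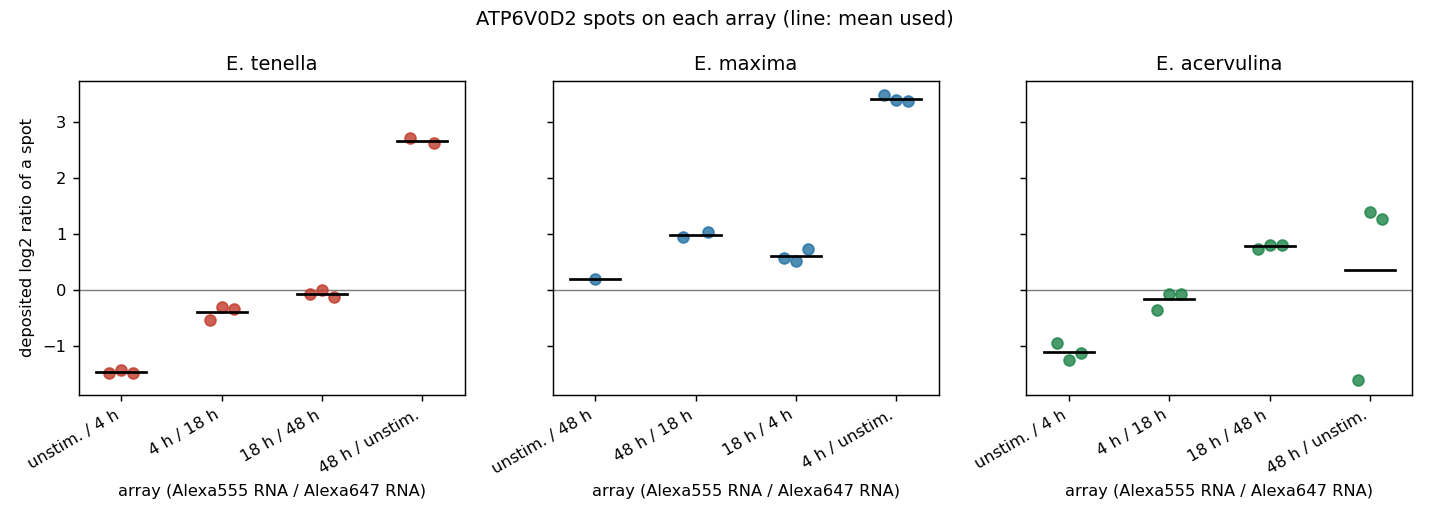
Deposited log2 ratios of the ATP6V0D2 spots (points) on each of the 12 arrays, named by the Alexa555 over the Alexa647 RNA, with a line at the mean used. In E. maxima 4 h lies 3.42 above unstimulated RNA while the single spot of unstimulated over 48 h RNA is near 0, and in E. acervulina 1 of 3 spots of 48 h over unstimulated lies at -1.61.

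LAPTM5 encodes a lysosomal membrane protein of blood cells that in mouse directs immune receptors to degradation. It was -0.46, -0.40 and 0.19 at 4 h with E. tenella, with E. maxima and with E. acervulina, and -0.33, -0.42 and 0.16 at 18 h. At 48 h it was -1.29, -0.68 and -0.57, in the fit each below all values at 4 and 18 h. The E. tenella loop added to 0.59. Its 4 h change was -0.607 by the direct array and -0.021 by the other 3 arrays, and its 18 h change was -0.625 or -0.039. The order of these values against -0.57 with E. acervulina thus depended on the route. The means were -0.22 ± 0.36, -0.20 ± 0.31 and -0.85 ± 0.39 (0.557 of the unstimulated level at 48 h). The 2 clones differed in size: at 48 h the first gave -0.88, -0.26 and -0.49 and the second -1.66, -1.11 and -0.68. Both were negative in the 3 species at 48 h. With E. maxima, however, the first clone was at -0.258, -0.285 and -0.259 at 4, 18 and 48 h, with no later fall. The second was at -0.541, -0.55 and -1.106, so the lower 48 h value with E. maxima came from that clone. With E. acervulina at 4 h the first clone was at -0.08 and the second at 0.59.

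**Figure D3:**
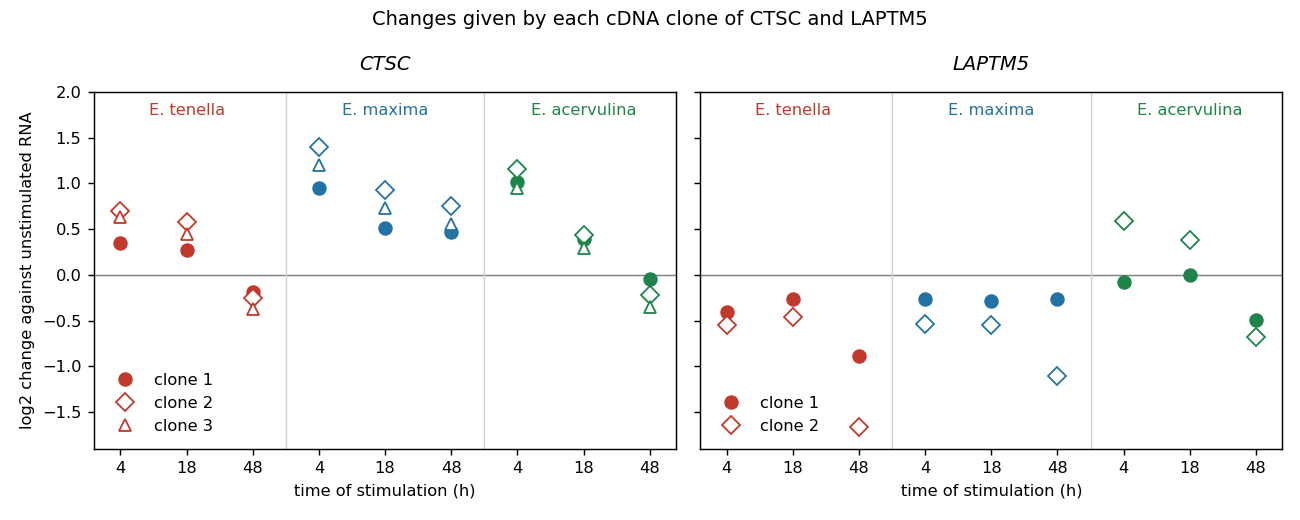
Log2 change against unstimulated RNA (vertical axis) at 4, 18 and 48 h in each species, with 1 symbol per cDNA clone of CTSC (3 clones) and LAPTM5 (2 clones). The CTSC clones keep close together, while LAPTM5 clone 2 lies below clone 1 at 48 h in each species, by the most with E. maxima (-1.11 against -0.26).

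LAMP5 encodes a LAMP family protein known in mammals from neurons and plasmacytoid dendritic cells. At 4 h its values were -0.77, -0.81 and -0.79 with E. tenella, E. maxima and E. acervulina, nearly equal. At 18 h they were -0.97, -0.74 and -1.09, and at 48 h 0.07, -1.05 and -0.74. E. tenella at 48 h stood alone, level with the unstimulated RNA. The means were -0.79 ± 0.02 (0.579 of the unstimulated level), -0.94 ± 0.18 and -0.58 ± 0.58. The array of 4 h against unstimulated RNA gave -0.643, -0.745 and -0.736, against -1.167, -0.982 and -0.944 by the other 3 arrays. The SD of 0.02 is thus smaller than the spread between arrays and is no measure of precision. At 48 h with E. tenella these routes gave -0.065 and 0.46. On the array of 18 h over 48 h RNA of E. tenella the ratio was -1.17, with 3 spots from -1.28 to -1.09.

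Between stimulated times, the contrasts that had not served to choose a gene were tested with limma on all 3700 features with Benjamini-Hochberg adjustment. Between 18 and 4 h 1 feature passed, or 0.027%, and between 48 and 18 h none did (501 at an unadjusted p under 0.05, lowest adjusted p = 0.254). From 4 to 18 h LAPTM5 differed by 0.03 (95% interval -0.35 to 0.40, limma adjusted p = 0.965) and LAMP5 by -0.15 (-0.64 to 0.35, limma adjusted p = 0.831). From 18 to 48 h CTSC differed by -0.47 (-0.85 to -0.08, limma adjusted p = 0.331), with a negative value in each species, of -0.71, -0.12 and -0.57. In the limma fit to the 12 arrays, which weighs it against array error and not against other cultures, CTSC had an adjusted p of 0.0211. For the same contrast that limma fit gave an adjusted p of 0.0587 for LAMP5, 0.0651 for CTSD, 0.719 for ATP6V0D2 and 0.792 for CTSK. That fit had 2 residual degrees of freedom and passed 937 to 1420 of 3700 features in the contrasts against unstimulated RNA. Its share for this contrast was not counted, so the CTSC value cannot be set against a background. In the fit to the levels CTSD differed by -0.23 (-0.88 to 0.42), CTSK by 0.07 (-0.32 to 0.46), ATP6V0D2 by -0.29 (-1.09 to 0.50) and LAMP5 by 0.36 (-0.14 to 0.85), with limma adjusted p of 0.772, 0.902, 0.767 and 0.496. None of the 7 tested differences passed the threshold of 0.05 in the fit to the levels, and each interval still allows a change of 0.4 or more in at least 1 direction.

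Averaged over the 3 times, the change of ATP6V0D2 was 2.11 with E. tenella, 1.55 with E. maxima and 0.89 with E. acervulina. For CTSK the averages were 0.63, 0.89 and 0.20, for CTSC 0.23, 0.82 and 0.41, and for CTSD 0.55, 0.76 and 0.73. LAPTM5 averaged -0.69, -0.50 and -0.07 and LAMP5 -0.56, -0.87 and -0.87. E. tenella was lowest for LAPTM5 and E. maxima highest for the 3 cathepsins. The order for ATP6V0D2 rested on the arrays described above. Without the E. maxima array of 1 spot, E. maxima averaged 4.15 and lay above E. tenella. That open loop no longer cancels a dye effect. Without the low spot E. acervulina averaged 1.38. A limma F test over species, with the 3 times of a species as its replicates, passed for 88 of 3700 features (2.38%) and for none of these 6 genes. Its adjusted p was 0.147 for ATP6V0D2, 0.264 for CTSK, 0.358 for LAPTM5, 0.474 for CTSC, 0.613 for LAMP5 and 0.932 for CTSD. For ATP6V0D2 the difference of E. acervulina from E. tenella was -1.23 with all spots, with a 95% half-width of 0.72. This test leaves out the error of the unstimulated RNA that the 3 times of a loop share, so its p-values are too small. With that error counted in a limma fit to the 12 levels, no feature passed (113 at an unadjusted p under 0.05), all 6 genes had an adjusted p of 0.9997, and the half-width for ATP6V0D2 became 1.54. CSTA, chosen for E. tenella, averaged 1.42, 0.88 and 0.43 and was not tested.

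Over the 12 levels (3 species, 4 times, centred within species) the cathepsins had Pearson correlations of 0.71 for CTSD with CTSK, 0.77 for CTSD with CTSC and 0.72 for CTSK with CTSC. CSTA ran closest to ATP6V0D2, at 0.80, and its correlation with LAPTM5 was -0.64. LAMP5 was at -0.65 with CTSC. These points share the unstimulated RNA and the arrays of a loop, and the coefficients only describe. Those of ATP6V0D2, here and below, also rest on its E. maxima levels, from the loop that added to 5.21. The features that follow are the 2 highest for each gene among the 2238 named features. The named features most like each gene over the 12 levels were FBXL14 (0.97) and ITGB5 (0.92) for CTSD, ABHD17B (0.89) and SDF2L1 (0.89) for CTSK, and VMA21 (0.98) and DRG2 (0.96) for CTSC. For CSTA they were CD200R1A (0.95) and PLK3 (0.94), for ATP6V0D2 K123 (0.93) and GOLGA3 (0.89), for LAPTM5 TXNDC17 (0.94) and AKR1B1 (0.94), and for LAMP5 RNF19B (0.99) and HAL (0.98).

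The 7 genes were set beside 82 other measured genes of proteases, cystatins, V-ATPase, membrane proteins, hydrolases and lysosome biogenesis. In limma with Benjamini-Hochberg adjustment over all features, 9 of the 82 (11%) passed at 4 h, 5 higher and 4 lower, against 10.4% of all features (4.51% higher and 5.89% lower). At 18 h 1 passed, higher (1.22% against 1.62%, of which 1.14% were higher and 0.486% lower). At 48 h 2 passed, 1 in each direction (2.44% against 3.59%, or 1.73% higher and 1.86% lower). For the mean of the 3 times 9 passed, 5 higher and 4 lower (11% against 10.5%, or 4.16% higher and 6.3% lower). The list medians were 0.06, 0.08, -0.02 and 0.04, against -0.03, 0.00, -0.03 and -0.02 over all features. These shares are near the background, which includes single spots that were not averaged. After centring of every array on its median, the list split became 8 higher and 2 lower at 4 h and 7 and 2 for the mean, and without 1 species 0 to 2 list genes passed at 4 h and 0 at the other times. If the unstimulated RNA was 1 sample, these p-values are too small.

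Among proteases, 11 besides CTSD, CTSK and CTSC were measured and none was higher past the threshold. PRCP, a lysosomal carboxypeptidase, fell at 4 h by 0.50 (limma adjusted p = 0.0187), and SCPEP1, a serine carboxypeptidase gene, fell by 0.33 over the 3 times (limma adjusted p = 0.0414). Of the cathepsins, CTSB was at 0.34 ± 0.29 at 4 h, CTSS at 0.07 ± 0.39, CTSH at -0.13 ± 0.16, CTSA at 0.01 ± 0.11, CTSZ at -0.45 ± 0.15 and CTSV at -0.45 ± 0.83. The legumain gene LGMN was at 0.43 ± 0.35, DPP7 at -0.24 ± 0.20 and TPP1 at -0.10 ± 0.29. The 3 described cathepsins, at 0.92 to 1.27, lay above these means, and that difference was not tested. They were chosen on changes of this kind, so a higher position follows from the choice. The other cystatins measured, named after their values were seen, were CST3 at -0.15 ± 0.15 and CSTB at -0.09 ± 0.19 at 4 h, against 1.0 for CSTA.

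None of 12 other V-ATPase genes passed at 4, 18 or 48 h or for the mean. At 4 h 9 of them were positive with a median of 0.22. Of the membrane sector, ATP6V0C was at 0.38 ± 0.17 and ATP6V0E1 at -0.30 ± 0.14, against 1.61 for ATP6V0D2, which was chosen on such changes. Of the catalytic sector, ATP6V1A was at 0.37 ± 0.23 and ATP6V1C2 at 0.43 ± 0.26. At 48 h the median of the 12 was -0.06, and they ranged from -0.58 for ATP6AP1 to 0.37 for ATP6V1D. The list of V-ATPase genes left out VMA21, which was measured and had a correlation of 0.98 with CTSC.

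Of 11 other lysosomal membrane genes, CD164 (a sialomucin) rose by 0.83 at 4 h and SPPL2A (an intramembrane protease) by 0.96 at 4 h and 1.18 at 18 h (limma adjusted p = 0.0222, 0.0207 and 0.0361). At these times LAMP5 was lower in every species, and LAPTM5 was lower with E. tenella and E. maxima but not with E. acervulina. TMEM106B rose by 0.93 at 48 h (limma adjusted p = 0.0260). The family members LAMP1, LAMP2 and LAPTM4A, named after their values were seen, were at 0.02 ± 0.19, 0.06 ± 0.05 and 0.25 ± 0.12 at 4 h and did not pass. Among 21 hydrolases and cofactors, the galactosylceramidase gene GALC fell by 0.59, the thiol reductase gene IFI30 by 0.55 and the cholesterol carrier gene NPC2 by 0.52 at 4 h, and IFI30 fell by 0.70 at 48 h. Of 25 genes of biogenesis and trafficking, RAB7B rose by 0.91, GNPTG, which helps make the mannose 6-phosphate tag, by 0.54 and RAB32 by 0.51 at 4 h (for these 6 genes limma adjusted p = 0.0144 to 0.0494).

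**Figure D4:**
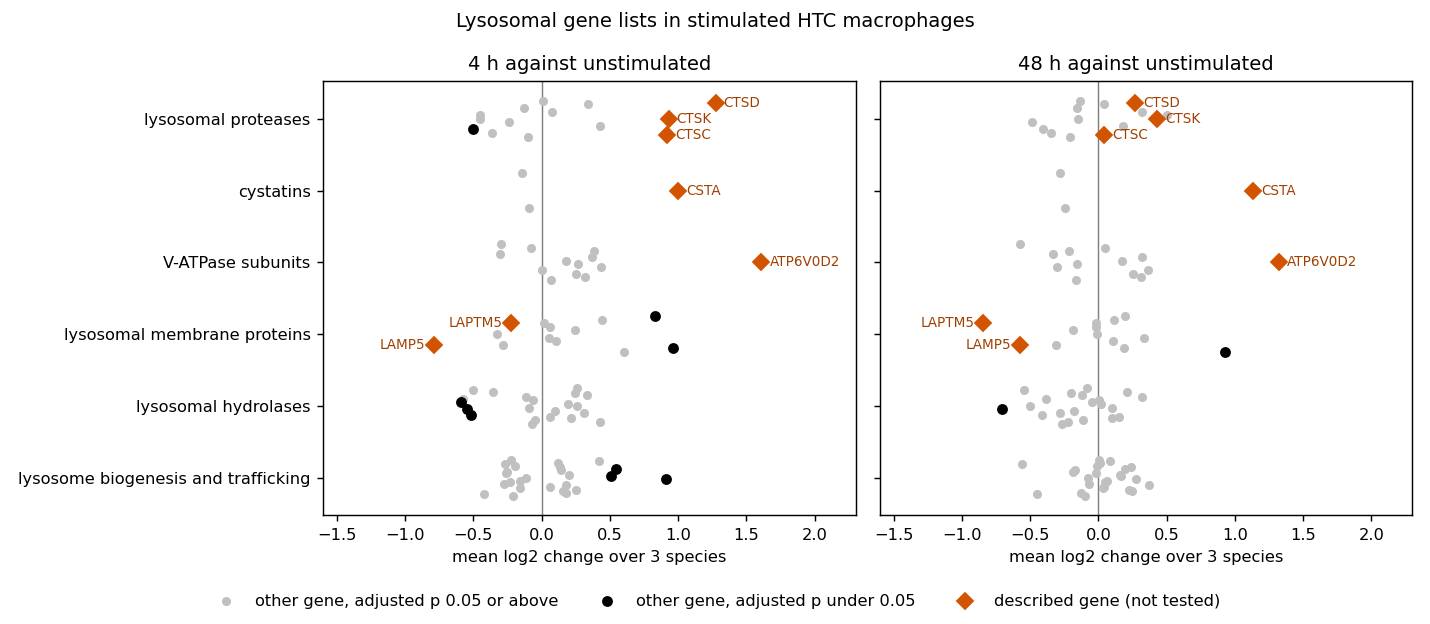
Mean log2 change over 3 species (horizontal axis) at 4 h and 48 h of the 7 described genes (diamonds, not tested) and 82 other genes in 6 lists (dots, black where limma's adjusted p is under 0.05). At 4 h the 3 described cathepsins lie at 0.92 to 1.27 and ATP6V0D2 at 1.61, to the right of the other genes of their lists. The described genes were chosen on changes of this kind and the others were not, so their position only describes.

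CTSK and ATP6V0D2 are also osteoclast markers. Of the marker genes below, SPP1, FABP4, CEBPB and lysozyme had been named in the earlier look at the same arrays, so their values are given without a test. Of 17 such markers 5 were measured. Of the other 3, CA2, a carbonic anhydrase gene, rose by 0.42 at 4 h and 0.61 at 18 h (limma adjusted p = 0.0335 and 0.0361). MMP9 was at 0.85 ± 0.50 at 4 h (limma adjusted p = 0.0699), and SPP1, the osteopontin gene, averaged 2.40 at 4 h. Of 26 macrophage markers 16 were measured, with medians of 0.12, -0.16 and -0.19 at 4, 18 and 48 h. CEBPB averaged 0.54 and LYZ, a lysozyme gene, -0.93 at 4 h, and FABP4 2.28, 2.47 and 2.31 at 4, 18 and 48 h. CYBB fell by 0.89 at 48 h and FCER1G by 0.34 for the mean of the 3 times (limma adjusted p = 0.0393 and 0.0413). At 4 h 2 of the 3 osteoclast markers passed, both higher, and of the 16 macrophage markers 2 were higher and 1 lower, against 10.4% of all features. At 18 h 1 of each list was higher, against 1.62%. At 48 h 1 macrophage marker was higher and 1 lower, against 3.59%. These counts include the genes named earlier and only set the scale. No marker passed among 3 T cell, 2 heterophil, 1 epithelial and 2 erythroid genes measured, and no B cell or fibroblast marker was measured. The part of other cell types in the changes of the 7 genes was not tested.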

How the data were processed

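The authors deposited 1 log ratio per spot and array, here read as log2 because that base is usual, with the base, numerator, background correction and normalization not given in the sources used here. Rows were named through the platform's annotation: 9066 had 1 symbol, 3 several and 5649 none, and 8976 matched a current gene record. Rows of a symbol were averaged without further centring (array medians -0.04 to 0.12), and rows without a single symbol each stood alone. Loop least squares gave 12 levels, in which a constant dye effect cancels. Missing rows ran from 5.30% to 17.1% per array, and the number of arrays limits the precision. limma 3.58.1 in R 4.3.3 was fitted to the levels with a species block and a time factor (6 residual degrees of freedom), with two-sided p-values, Benjamini-Hochberg adjustment over 3700 features and a threshold of 0.05. The fits were tested on simulated data that held a dye effect but no array error. That test could not show what loops that fail to close do to the changes.

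The members and gene lists were chosen with earlier results of these data known. So was the direction, and the opposite one had been planned in that earlier work. Named genes were the 7 members, list genes past the threshold (at most 4 per list and contrast), any protease or V-ATPase gene, and the 2 features most correlated with each member. The species F test on 9 changes was planned; the fit that counts the error of the unstimulated RNA was added after seeing the data. Other scaling, filters, row summaries, left-out species, spots and a fit to arrays were tried.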

Additional observations from a re-analysis of the deposited data

How the results depend on the processing

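Under Alexa647 over Alexa555 the mean changes of CTSD, CTSK, CTSC, CSTA, ATP6V0D2, LAPTM5 and LAMP5 became -0.68, -0.58, -0.49, -0.91, -1.52, 0.42 and 0.77, and the contrasts between times -0.026 (LAPTM5) and 0.15 (LAMP5) for 18 against 4 h and 0.23 (CTSD), -0.068 (CTSK), 0.47 (CTSC), 0.29 (ATP6V0D2) and -0.36 (LAMP5) for 48 against 18 h. Of 368 changes of the 7 genes under 18 settings other than direction, 157 equalled the reported value, most of them under 4 settings that could not move it. Those settings alter only the error or the features included, or subtract a constant dye effect, which cancels in a closed loop. Of the 211 changes that differed from the reported value, 208 kept their sign. The exceptions were CTSC at 48 h, at 0.00 with the median of rows, -0.24 without E. maxima and -0.06 with its clone 3 alone. No setting left out the E. maxima array of 4 h over unstimulated RNA. By the other arrays of that loop ATP6V0D2 with E. maxima was at -1.80, -1.19 and -0.20 at 4, 18 and 48 h. The mean change of ATP6V0D2 was 2.39 without the E. maxima array of 1 spot, and 2.55 without the low E. acervulina spot too. It was also 2.39 with all values resting on 1 spot missing, when 48 against 18 h became 0.14. These alternatives were chosen after seeing the data, and a dye effect does not cancel in the open E. maxima loop.

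Calls depended on the settings. Without 1 species, 0 to 76 features passed at 4 h, 0 to 1 at 18 h, 0 to 2 at 48 h and 0 to 4 for the mean, and 0 to 2 list genes at 4 h and 0 otherwise; 76 was without E. tenella, and there were 1 without E. maxima and 0 without E. acervulina. Fewer samples enter these fits. Also without a species, 18 against 4 h for LAPTM5 ranged from -0.025 to 0.055, and 48 against 18 h for CTSK from -0.10 to 0.22 and for CTSD from -0.50 to 0.041. With arrays centred on their medians 239 features were higher and 169 lower at 4 h (167 and 218 without centring), 77 and 45 at 48 h (64 and 69) and 201 and 150 for the mean (154 and 233), and 2 list genes passed at 18 h. Centred and scaled arrays gave 35 features at 18 h, 171 for the mean and 4 list genes for the mean. With at least 3 of 4 arrays per loop 5, 37 and 208 features passed at 18 h, 48 h and for the mean, with 0, 0 and 3 list genes. With values resting on 1 spot missing these were 5, 4 and 192 features and 0, 0 and 3 list genes. The median of rows gave 107 features and 3 list genes at 18 h, and leaving out 698 spots over 1 from their clone's median gave 2 list genes at 18 h.

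The levels are already centred within loops, so a fit with no replicate block for species overcounts degrees of freedom; it gave 871, 660, 612 and 965 features and 18, 11, 11 and 18 list genes at 4, 18 and 48 h and for the mean. The fit to the 12 arrays, which measures array error only, gave 1386, 937, 1199 and 1420 features and 39, 17, 28 and 32 list genes. The cause of the other shifts was not tested. The labels carry no replicate numbers, and the pairing used is that of each stimulated RNA with the unstimulated RNA of its own loop.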
